A study of Mus musculus with 24 samples.

Results

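The genes described here are 8 components of the apoptosis pathway that starts at death receptors, read across ID8 cells treated with 2 type I interferons. They were chosen by name and cover the ligand TRAIL (Tnfsf10), the receptors Tnfrsf10b and Fas, the adaptor Fadd, the initiator caspase Casp8, its inhibitor Cflar, and 2 members of the mitochondrial arm, Bcl2 and Pmaip1. All 8 were found on the array, among 22911 genes that could be named, and they were measured by 14 probes. ID8 is a mouse line that arose from ovarian surface epithelial cells in culture and is widely used as a model of ovarian cancer. Cells were treated for 3 h with recombinant mouse interferon epsilon (IFN epsilon) or interferon beta (IFN beta), each at doses of 10, 100 and 1000 IU/ml, and the untreated controls received PBS. Each group held 3 samples made on separate dates, here called dates 1, 2 and 3, except IFN beta at 10 and at 100 IU/ml, which held 2 samples each because the submitters excluded 1 array of each (both of date 3) from their analysis. Wells treated alike on a date were pooled, so a sample is 1 date; p-values measure the spread between dates in 1 cell line. RNA came from bulk cultures, so a shift in every cell and a shift in some cells cannot be told apart.

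TRAIL binds Tnfrsf10b, the only death-inducing TRAIL receptor of the mouse, and Fas ligand binds Fas. The occupied receptor recruits Fadd, which draws in Casp8 to form a death-inducing signalling complex, and Cflar, a relative of Casp8 without protease activity, competes for places in it. Active Casp8 cleaves executioner caspases directly, and it also cleaves Bid, which carries the signal to mitochondria, where Bcl2 restrains release of cytochrome c and the BH3-only protein Pmaip1 (Noxa) neutralises Mcl1. Tnfsf10 is known as an interferon-stimulated gene in many cell types, and IFN epsilon and IFN beta share the receptor made of Ifnar1 and Ifnar2.

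The stretches upstream of Tnfsf10 and Fas, the members that rose with IFN epsilon, and of Casp8, which did not pass the test in any comparison, are shown to let the letters of interferon-responsive elements be compared. Sequences are the 250 bases before each gene's start in RefSeq (GRCm38.p6), all on the plus strand, at chr3:27316827-27317076 for Tnfsf10, chr19:34290409-34290658 for Fas and chr1:58802252-58802501 for Casp8. Capitals mark matches, on either strand, to AANNGAAA, a short form of the core that interferon regulatory factors bind, and in Fas also TTCNNNGAA, the spacing of a STAT site.
Tnfsf10: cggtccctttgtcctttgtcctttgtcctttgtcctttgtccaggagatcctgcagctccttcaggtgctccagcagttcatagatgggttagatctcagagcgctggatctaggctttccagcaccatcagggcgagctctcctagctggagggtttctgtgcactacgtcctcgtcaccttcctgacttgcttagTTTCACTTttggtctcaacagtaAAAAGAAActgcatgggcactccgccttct
Fas: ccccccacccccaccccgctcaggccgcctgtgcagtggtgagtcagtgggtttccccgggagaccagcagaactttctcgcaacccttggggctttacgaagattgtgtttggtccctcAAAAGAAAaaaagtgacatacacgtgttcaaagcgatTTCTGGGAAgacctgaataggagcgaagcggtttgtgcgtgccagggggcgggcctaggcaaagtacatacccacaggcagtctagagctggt
Casp8: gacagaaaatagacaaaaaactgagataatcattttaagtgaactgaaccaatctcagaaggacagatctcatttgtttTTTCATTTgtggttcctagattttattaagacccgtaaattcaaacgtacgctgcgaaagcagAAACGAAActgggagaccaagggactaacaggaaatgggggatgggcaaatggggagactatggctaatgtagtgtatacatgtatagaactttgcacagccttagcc
Tnfsf10 held 2 matches to AANNGAAA, at 53 to 46 and at 30 to 23 bases before the start. Fas held 1, at 130 to 123 bases, and a match to TTCNNNGAA at 93 to 85 bases, which reads the same on both strands. Casp8 held 2 matches to AANNGAAA, at 171 to 164 and at 108 to 101 bases. The core of the interferon-stimulated response element, 2 GAAA repeats separated by 2 bases, contains AANNGAAA. This core was found in 0 of the 6 members whose upstream stretch was read (Tnfsf10, Fas, Fadd, Casp8, Cflar and Bcl2). Tnfrsf10b and Pmaip1 were not searched. Among 32851 upstream stretches of all genes, 2.98% held this core on either strand, 7.02% held TTCNNNGAA and 21.3% held AANNGAAA. AANNGAAA was added after these sequences had been seen, and a match is a description of letters only. Cflar and Casp8 are neighbours on chromosome 1, with 1 non-coding gene between them.

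Values are levels on a log2 scale: the scanner software's processed intensity of a probe, as log2, minus the 75th percentile of the same array, so that 0 is the brightness that 75% of spots do not reach. Levels can be compared between samples for 1 probe, not between probes. The 75th percentile lay between 619 and 1201 intensity units over the 22 arrays used, with means of 1092, 1047 and 736 on dates 1, 2 and 3, so that date 3 was dimmest. Between 49.9% and 58.7% of probe spots were well above background, and 0 were saturated. The highest share was on the date 3 array of 1000 IU/ml IFN epsilon, while the other date 3 arrays used had 49.9% to 52.3%. Of 12 ovarian epithelial and mesenchymal markers, 10 were well above background on all 22 arrays, among them Krt8, Krt18, Msln and Wt1. Pax8 was so on 2 arrays, and Muc16 was not matched to a probe. Of 10 leukocyte markers, Ptprc and 4 others were never well above background, and 4 (Cd3e, Itgam, Cd68 and Csf1r) were so on every array. Of 7 endothelial and fibroblast markers, 5 (Kdr, Col1a1, Col3a1, Pdgfra and Dcn) were well above background on every array. Pecam1 was so on 21 arrays and Cdh5 on 0. Of the markers in these lists, 0 were called in any of the 6 comparisons with untreated cells.

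A gene was called when its Benjamini-Hochberg adjusted p, over 14424 genes in a limma fit of all 19 samples, was under 0.05. Against untreated cells, 0 of the 8 members were called at 10 IU/ml IFN epsilon, where 0.201% of all genes were (0.513% in the fit with dates, described next), and 1 (Tnfsf10) at 100 IU/ml, where 1.05% were. The highest dose of IFN epsilon gave 2 called members, Tnfsf10 and Fas, against 2.26% of all genes. Both were higher, as 2.19% of all genes were, and 0 members were called lower, as 0.0693% of all genes were. With IFN beta the members called were 0 at 10 IU/ml (0% of all genes), 0 at 100 IU/ml (0.111%) and 1, Tnfsf10, at 1000 IU/ml (1.56%), where 0 were called lower (0.0139%). In the 3 limma comparisons with 0 called, 0 members had an unadjusted p under 0.05. Samples of the same date deviated from their group means together, and a fit with the date as a block, here called the blocked fit, called 5 members at 1000 IU/ml IFN epsilon (8.23% of all genes): Tnfsf10 and Fas higher (4.33% of all genes were called higher) and Tnfrsf10b, Bcl2 and Pmaip1 lower (3.9% were called lower). With IFN beta at 1000 IU/ml it called 2 (3.2% of all genes), Tnfsf10 and Fas, both higher (2.72% of all genes were). The median member change at 1000 IU/ml IFN epsilon was 0.0060 on the log2 scale against -0.065 for all genes, so the median member moved about as little as the median gene.

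**Figure D1:**
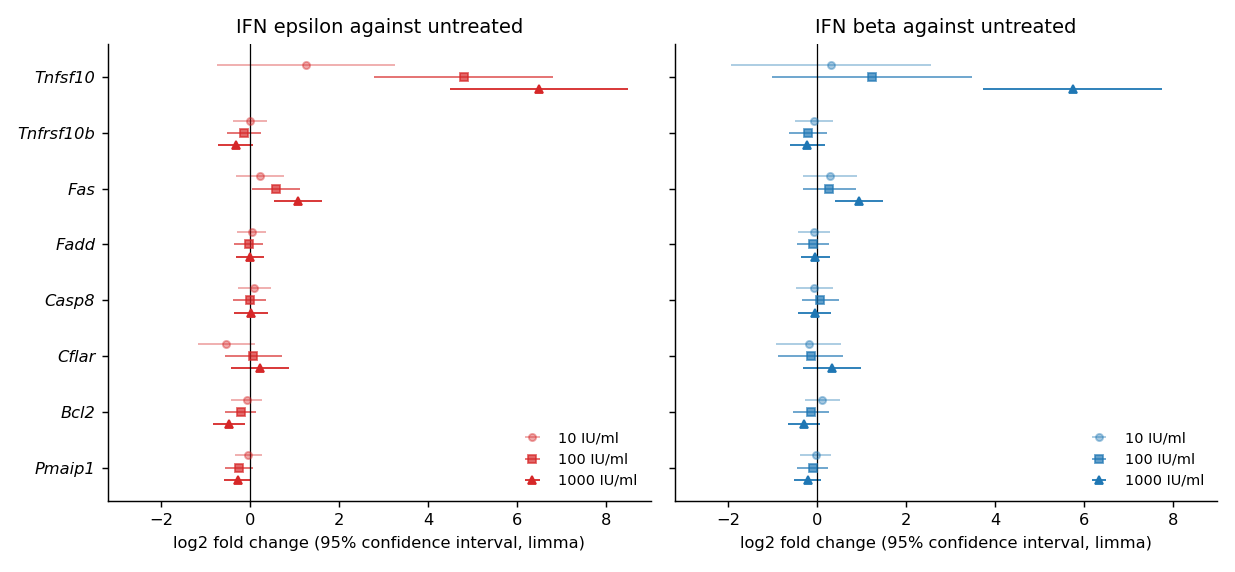
Log2 fold changes of the 8 members against untreated cells, with 95% confidence intervals from the limma fit, for IFN epsilon (left, red) and IFN beta (right, blue) at 10, 100 and 1000 IU/ml. Tnfsf10 reached 6.49 with IFN epsilon and 5.75 with IFN beta at 1000 IU/ml, Fas lay near 1 for both, and the other 6 genes lay between -0.53 and 0.33.

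Tnfsf10 encodes TRAIL, a ligand of the TNF family that kills many tumour cells and spares most normal ones. In untreated cells its levels were -6.83, -6.62 and -6.39 on dates 1, 2 and 3, and its probe was well above background on 0 of 6 arrays, so the untreated level is only an upper bound. With IFN epsilon its levels were -6.16, -5.45 and -4.48 at 10 IU/ml. At 100 IU/ml they were -3.66, -1.33 and -0.48, and at 1000 IU/ml -1.14, 0.20 and 0.56. All samples at 100 and at 1000 IU/ml lay above all untreated samples and all samples at 10 IU/ml, while 100 and 1000 IU/ml overlapped. The probe was well above background on 2 of 3 arrays at 10 IU/ml and on 3 of 3 at each higher dose.

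With IFN beta the Tnfsf10 levels were -5.92 and -6.69 at 10 IU/ml and -5.83 and -4.94 at 100 IU/ml, on dates 1 and 2. The levels at 1000 IU/ml were -2.89, -1.11 and 1.40 on dates 1, 2 and 3. The probe was not well above background at 10 IU/ml, as in untreated cells, and it was so on 2 of 2 arrays at 100 IU/ml and on 3 of 3 at 1000 IU/ml. The IFN beta samples at 1000 IU/ml spread over more than 4 log2 units (SD 2.16), and the highest of all 19 samples was among them. In each of the 5 groups with a sample of date 3, that sample had the highest Tnfsf10 level, and date 3 was also the date with the dimmest arrays; the part of brightness in this order was not tested.

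**Figure D2:**
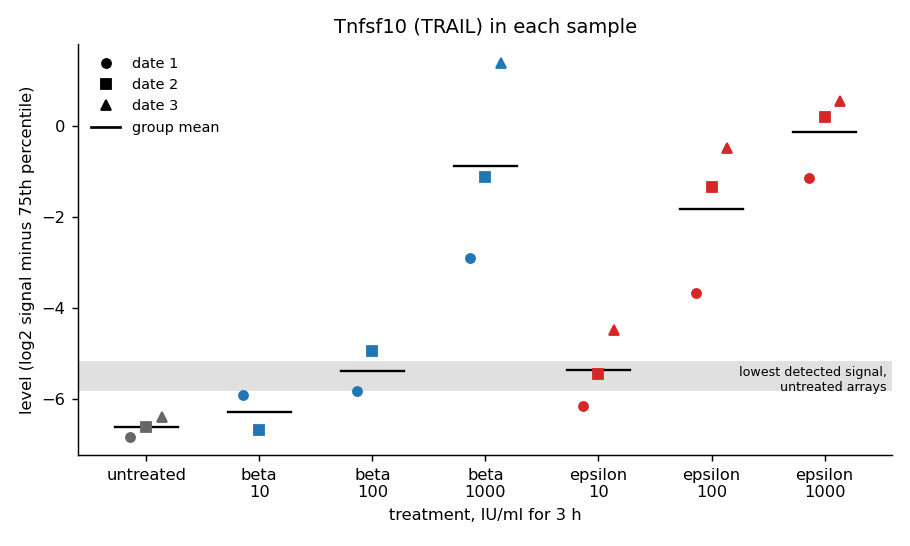
Tnfsf10 level (log2 intensity minus the array's 75th percentile) in each of the 19 samples, by treatment and dose in IU/ml; the marker shape gives the date, the bar the group mean, and the grey band the range, over the 6 untreated arrays, of the lowest signal well above background. Untreated samples lie between -6.83 and -6.39, below the band, and the samples at 1000 IU/ml lie between -2.89 and 1.40.

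Against untreated cells Tnfsf10 was at least 43.9-fold higher at 1000 IU/ml IFN epsilon (limma adjusted p = 0.000754, higher on 3 of 3 dates). At 100 IU/ml IFN epsilon it was at least 13.6-fold higher (limma adjusted p = 0.0177), and at 1000 IU/ml IFN beta at least 26.3-fold higher (limma adjusted p = 0.00294). These bounds set the treated mean against the lowest signal that was well above background on each untreated array; the measured log2 differences were 6.49 ± 0.94 (SE), 4.79 ± 0.94 and 5.75 ± 0.94. The bounds hold for the processed signal only, since the difference at 1000 IU/ml IFN epsilon was 3.66 with normexp correction (limma adjusted p = 0.0128) and 5.04 with the submitters' processed values (0.00225). Within dates the difference was 5.69, 6.82 and 6.95 at 1000 IU/ml IFN epsilon and 3.94, 5.52 and 7.79 at 1000 IU/ml IFN beta. For 10 IU/ml IFN epsilon, where 2 of 3 arrays measured the gene, the same calculation gave 1.16-fold (limma adjusted p = 1.00). That value is no lower bound, since the date 1 array (-6.16) was not well above background and its level may be lower. For 100 IU/ml IFN beta the bound was at least 1.15-fold (limma adjusted p = 1.00). The 2 arrays of an untreated sample differed by 0.34 to 1.29 for this dim probe. Within slides, of which each held 8 arrays, the difference at 1000 IU/ml was 5.48 to 7.12 for IFN epsilon and 5.20 and 5.88 for IFN beta. The treated and untreated arrays of a slide came from different dates in whole or in part. Differences within slides therefore include differences between dates, here and for the genes below. The call at 100 IU/ml IFN epsilon was lost with normexp background correction (2.22, limma adjusted p = 0.602), with the submitters' processed values (0.0862), with a fit of only these groups (0.0747), with the 2 excluded arrays added (limma adjusted p = 1.00), and without date 2 (0.110) or date 3 (0.130) of that dose or any untreated date (0.0637 to 0.0852). The call for IFN beta at 1000 IU/ml was lost with normexp correction (3.09, limma adjusted p = 0.0608), with a fit of only these groups (0.154) and with the excluded arrays added (0.387), and that for IFN epsilon at 1000 IU/ml only with the latter (0.133).

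Of the receptors, Fas, which triggers apoptosis on binding Fas ligand and is a known target of interferon and p53, was 2.11-fold higher at 1000 IU/ml IFN epsilon. Its levels in untreated cells were 0.34, 0.13 and -0.34 on dates 1, 2 and 3. With IFN epsilon they were 0.38, 0.47 and -0.07 at 10 IU/ml, 0.64, 1.01 and 0.21 at 100 IU/ml, and 1.03, 1.55 and 0.78 at 1000 IU/ml. On each date the level was higher at each higher dose, and at 1000 IU/ml all samples lay above all untreated samples, while the 2 lower doses overlapped with untreated cells. With IFN beta they were 0.44 and 0.22 at 10 IU/ml, 0.28 and 0.35 at 100 IU/ml, and 0.72, 0.94 and 1.28 at 1000 IU/ml, again above all untreated samples at the highest dose only.

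The Fas difference from untreated cells was 1.08 ± 0.25 at 1000 IU/ml IFN epsilon (limma adjusted p = 0.0339) and 0.94 ± 0.25 at 1000 IU/ml IFN beta, which was not called (limma adjusted p = 0.106) but was called in the blocked fit (adjusted p = 0.0321). That blocked call was lost when any date was left out (0.60 to 1.22, adjusted p = 0.144 to 0.368) and with median scaling (0.79, adjusted p = 0.570). At 100 IU/ml IFN epsilon it was 0.58 ± 0.25 (limma adjusted p = 1.00). The second Fas probe gave smaller differences of 0.50 and 0.26 at 1000 IU/ml of IFN epsilon and IFN beta, each higher on 3 of 3 dates. Within slides, with dates mixed, the difference at 1000 IU/ml was 0.77 to 1.56 for IFN epsilon and 0.93 and 0.87 for IFN beta. The Fas call at 1000 IU/ml IFN epsilon was lost when arrays were scaled to their median (0.70, limma adjusted p = 0.387), when probes were averaged (0.79, 0.114), with no filter on dim probes (0.0677), with only these 2 groups fitted (0.227), with the excluded arrays added (0.111), and without date 1 (0.0830) or date 2 (0.195) of the treated group or date 2 (0.0900) or date 3 (0.205) of the untreated one. Median scaling moved the median change of all genes in this comparison from -0.065 to -0.44. Relative to that median, Fas was 1.14 higher. The scalings differ by a constant per array, so this value is the same under both by construction and is no check of the call.

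Tnfrsf10b, the receptor that TRAIL engages, was not called in the limma fit at any dose. Its levels were 1.05, 1.04 and 1.44 in untreated cells, 0.71, 0.70 and 1.12 at 1000 IU/ml IFN epsilon, and 0.90, 0.77 and 1.21 at 1000 IU/ml IFN beta on dates 1, 2 and 3. The groups overlapped because date 3 was higher in all of them, but on each date the level with IFN epsilon was lower than in untreated cells by a similar amount (-0.34, -0.34 and -0.32). The limma fit gave -0.33 ± 0.18 (adjusted p = 0.772), and the blocked fit gave -0.33 ± 0.05 (adjusted p = 0.00225). The blocked adjusted p was 0.0521 to 0.168 when 1 date was left out, and 0.257 with arrays scaled to their median. The value relative to the median of all genes was -0.27, the same under either scaling by construction. The second probe of Tnfrsf10b gave -0.12, with -0.53 to 0.33 on single dates, so it did not show the same fall on every date. Within slides, with dates mixed, the first probe gave -0.05, -0.62 and -0.33. With IFN beta at 1000 IU/ml the difference was -0.21 ± 0.18 (limma adjusted p = 1.00; blocked 0.0512).

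**Figure D3:**
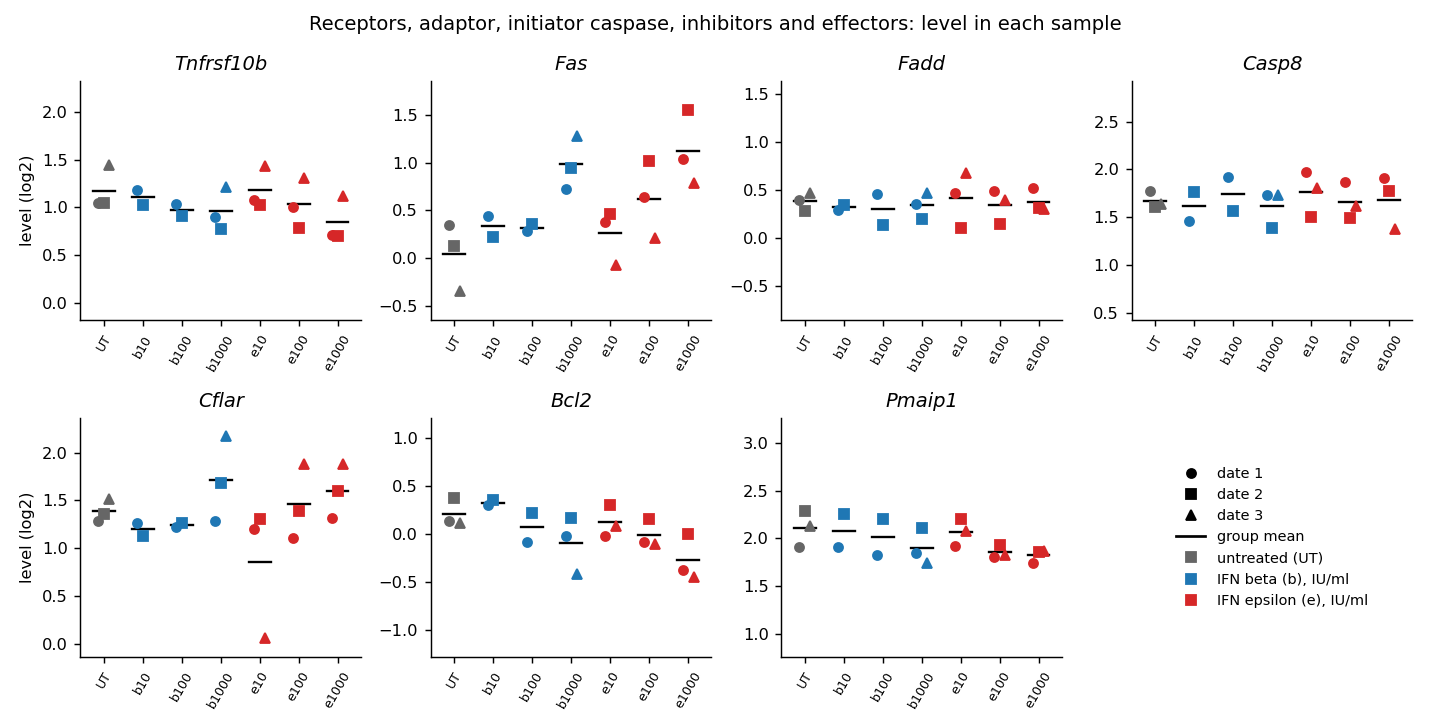
Levels (log2 intensity minus the array's 75th percentile) of the 7 members other than Tnfsf10 in each sample, each panel spanning 2.5 log2 units; shapes give dates, colours the treatment, bars the group means. Fas lies between 0.72 and 1.55 at 1000 IU/ml of either interferon against -0.34 to 0.34 in untreated cells, Bcl2 lies lower at 1000 IU/ml IFN epsilon (-0.45 to -0.0046), and 1 Cflar sample at 10 IU/ml IFN epsilon stands apart at 0.06.

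The components of the receptor complex showed small differences that did not pass the test. Fadd, the adaptor between receptor and caspase, had levels of 0.39, 0.28 and 0.46 in untreated cells and 0.52, 0.31 and 0.30 at 1000 IU/ml IFN epsilon, a difference of -0.0036 with a 95% confidence interval of -0.33 to 0.32. With 1000 IU/ml IFN beta the difference was -0.04 (-0.36 to 0.28). Casp8, the initiator caspase, had levels of 1.77, 1.60 and 1.64 in untreated cells and 1.91, 1.77 and 1.38 at 1000 IU/ml IFN epsilon, a difference of 0.02 (-0.36 to 0.39). With 1000 IU/ml IFN beta it was -0.05 (-0.43 to 0.32). In both genes treated and untreated samples overlapped at every dose, and the intervals leave room for changes of up to about 0.4 on the log2 scale.

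Cflar encodes c-FLIP, which blocks activation of Casp8 at the receptor. Its levels were 1.29, 1.36 and 1.52 in untreated cells, 1.31, 1.60 and 1.88 at 1000 IU/ml IFN epsilon and 1.29, 1.68 and 2.17 at 1000 IU/ml IFN beta. The treated samples overlapped with untreated ones, and the differences were 0.21 ± 0.30 and 0.33 ± 0.30 (limma adjusted p = 1.00 for both). With arrays scaled to their median the first value was -0.16. Relative to the median of all genes it was 0.28 higher, the same under either scaling by construction. The other 3 Cflar probes gave 0.33, 0.29 and 0.18 at 1000 IU/ml IFN epsilon. At 10 IU/ml IFN epsilon the date 3 sample stood apart at 0.06 on the probe that represents the gene, 1.46 below the untreated sample of its date, and the difference there was -0.53 ± 0.30 (limma adjusted p = 1.00). Of the other probes, 2 gave 0.10 and -0.18 in that group, and the third, which was well above background on 1 of its 3 arrays, gave -0.63.

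**Figure D4:**
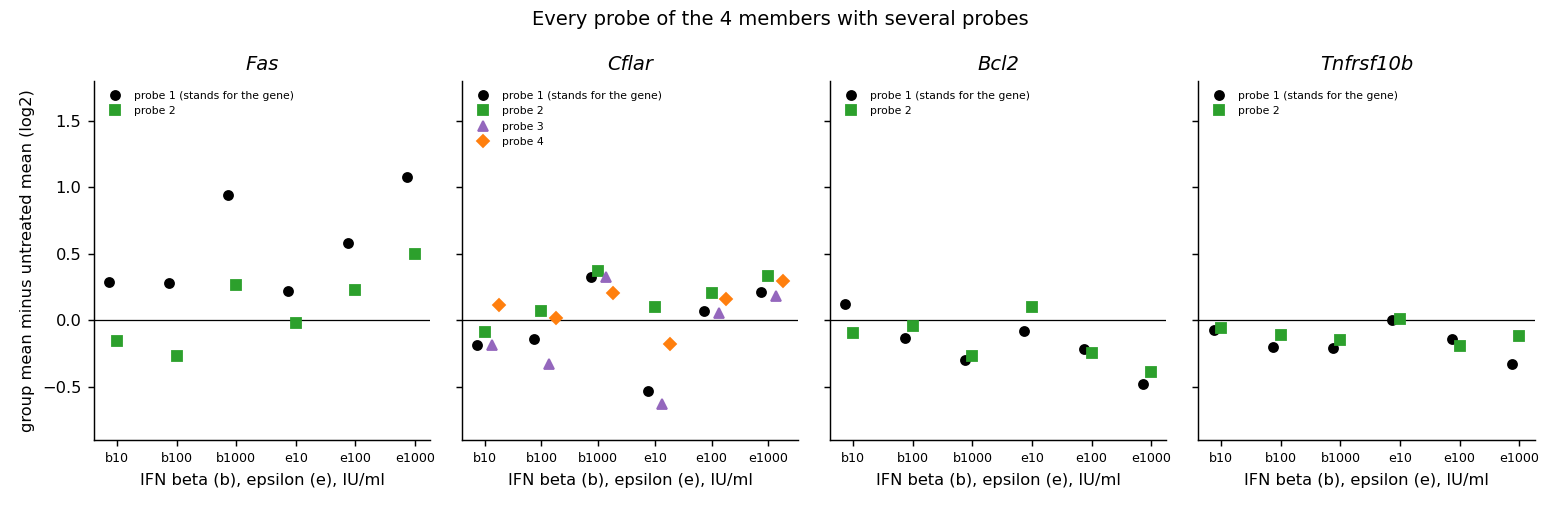
Group mean minus untreated mean (log2) for every probe of the 4 members with more than 1 probe, at 10, 100 and 1000 IU/ml of IFN beta (b) and IFN epsilon (e); black circles are the probes that represent the genes. Both Fas probes were higher at 1000 IU/ml IFN epsilon (1.08 and 0.50), both Bcl2 probes lower (-0.48 and -0.39), and the Tnfrsf10b probes gave -0.33 and -0.12.

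In the mitochondrial arm, Bcl2, which keeps the outer mitochondrial membrane intact, had levels of 0.13, 0.38 and 0.11 in untreated cells and -0.37, -0.0046 and -0.45 at 1000 IU/ml IFN epsilon. All 3 treated samples lay below all untreated samples. With 1000 IU/ml IFN beta the levels were -0.02, 0.17 and -0.42, which overlapped with untreated cells. The difference with IFN epsilon was -0.48 ± 0.17, not called in the limma fit (adjusted p = 0.292) and called in the blocked fit (-0.48 ± 0.09, adjusted p = 0.00578). Without date 1 or date 2 the blocked adjusted p was 0.146 and 0.186, and without date 3 it was 0.0280. On single dates it was -0.50, -0.38 and -0.56, and at 100 IU/ml IFN epsilon -0.21, -0.23 and -0.21. The second Bcl2 probe gave -0.39 at 1000 IU/ml, lower on 3 of 3 dates. Within slides, with dates mixed, the first probe gave -0.57, -0.12 and -0.75. Scaled to the median of each array the value was -0.85 (blocked adjusted p = 0.159). Relative to the median of all genes it was -0.42, the same under either scaling by construction. With IFN beta at 1000 IU/ml the difference was -0.30 ± 0.17 (limma adjusted p = 1.00; blocked 0.0976).

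Pmaip1, a BH3-only protein that promotes apoptosis by binding Mcl1, had levels of 1.91, 2.28 and 2.13 in untreated cells and 1.74, 1.86 and 1.86 at 1000 IU/ml IFN epsilon. With IFN beta at that dose they were 1.85, 2.11 and 1.74. The IFN epsilon samples lay below all untreated samples and the IFN beta samples overlapped with them. The difference with IFN epsilon was -0.29 ± 0.14 (limma adjusted p = 0.708), with -0.17, -0.42 and -0.27 on single dates, and the blocked fit called it (adjusted p = 0.0394). That call was lost when any date was left out (0.129 to 0.330) and with each other scaling or processing of the signal (0.0571 to 0.267). With IFN beta the difference was -0.21 ± 0.14 (limma adjusted p = 1.00). 

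Over the members, groups that did not overlap with untreated cells were counted at each dose. All samples of 1000 IU/ml IFN epsilon lay above the untreated ones for 2 members (Tnfsf10 and Fas), as for 5.92% of all genes, and below for 2 (Bcl2 and Pmaip1), as for 7.38%. For 100 IU/ml IFN epsilon 1 member, Tnfsf10, lay above (3.27% of all genes) and 0 below (3.46%). At 10 IU/ml IFN epsilon 0 lay below (1.04%), and the values of 1, Tnfsf10, lay above (1.69%), but there 1 treated array and all 6 untreated arrays were not well above background, so their order is not read. For IFN beta 2 lay above at 1000 IU/ml, Tnfsf10 and Fas (5.26%), and 0 below (4.62%). The 2 samples of 100 IU/ml IFN beta lay above for 1, Tnfsf10 (4%), with the bound of 1.15-fold given before, and below for 2, Tnfrsf10b and Cflar (5.58%). That group has no sample of date 3, the date with the highest untreated level of both genes. Within dates Tnfrsf10b differed there by -0.01 and -0.13 (blocked -0.07, adjusted p = 1.00) and Cflar by -0.065 and -0.088. Those of 10 IU/ml, also without date 3, lay above for 0 (4.69%) and below for 1, Cflar (3.48%).

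The interferons were compared with each other at matched doses for each of the 8 members, over all 14424 genes in each comparison. Of the members, 0 were called at 10 IU/ml (0.0971% of all genes were called), 0 at 100 IU/ml (0.0901%) and 0 at 1000 IU/ml (0%). The blocked fit also called 0 members at these doses, with 0.118%, 0.361% and 0% of all genes called. In the limma fit 1 member, Tnfsf10, had an unadjusted p under 0.05 at 100 IU/ml, and the count over all genes at that dose is not given. At 1000 IU/ml 0 members and 186 of all genes had one. Tnfsf10 at 100 IU/ml was 11.8-fold higher with IFN epsilon, a log2 difference of 3.56 (95% confidence interval 1.32 to 5.81, limma adjusted p = 0.602). All 3 IFN epsilon samples lay above both IFN beta samples, as for 5.32% of all genes, while for 8.12% they lay below. The IFN beta samples (-5.83 and -4.94) lay near the lowest signal well above background on their arrays (-5.96 and -5.65). The fold is therefore given for the processed signal only. On the dates that both groups share the difference was 2.16 and 3.62, and the blocked fit gave 3.02 ± 0.70 (adjusted p = 0.158), or 3.02 ± 0.52 with median scaling (adjusted p = 0.000834). With the excluded date 3 arrays added the difference was 1.37 ± 1.75. The Tnfsf10 difference at 1000 IU/ml was 0.74 (-1.27 to 2.75), with 1.75, 1.31 and -0.84 on single dates, so IFN epsilon was higher on dates 1 and 2 and IFN beta on date 3. Fas differed by 0.14 (-0.40 to 0.67) at 1000 IU/ml, with 0.31, 0.61 and -0.50 on single dates. For the other 6 members the differences at 1000 IU/ml lay between -0.18 (Bcl2, -0.54 to 0.18) and 0.07 (Casp8, -0.31 to 0.44). These intervals do not show that the interferons act alike on these genes.

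Between 10 and 1000 IU/ml of the same interferon, 1 member, Tnfsf10, was called for IFN epsilon (1.37% of all genes were called) and for IFN beta (1.12%). Its difference was 5.24 ± 0.94 for IFN epsilon (limma adjusted p = 0.0109) and 5.44 ± 1.05 for IFN beta (limma adjusted p = 0.0169), the latter at least 27.4-fold because the probe was not well above background at 10 IU/ml. The IFN epsilon call was lost without date 1 of 10 IU/ml or without date 2 or 3 of 1000 IU/ml, and the IFN beta call without either sample of 10 IU/ml. The blocked fit called 4 members for IFN epsilon (4.67% of all genes): Tnfsf10, Fas (0.86, adjusted p = 0.0379), Tnfrsf10b (-0.33, 0.00416) and Bcl2 (-0.40, 0.0238). With single dates left out the blocked adjusted p was 0.0394 to 0.245 for Fas, 0.0609 to 0.191 for Tnfrsf10b and 0.114 to 0.229 for Bcl2. For IFN beta it called 2 (1.72% of all genes): Tnfsf10 and Tnfrsf10b (-0.27, adjusted p = 0.0416). Without the block Tnfrsf10b was at -0.14 (limma adjusted p = 1.00), and its blocked call was lost when any date was left out (0.271 to 0.568). The test of whether the dose effect differs between the interferons called 0 members (0% of all genes; 0 members at an unadjusted limma p under 0.05), with 0.21 ± 0.38 for Fas. For Tnfsf10 the IFN beta dose effect is only a lower bound. The IFN epsilon one rests in part on a dim signal, since 2 of 3 arrays at 10 IU/ml were well above background. No difference between the dose effects of Tnfsf10 is therefore given.

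Outside the members, the other genes of the pathway were read from 5 lists. In the blocked fit 8.23% of all genes were called at 1000 IU/ml IFN epsilon and 1.56% at 100 IU/ml. With IFN beta it called 3.2% at 1000 IU/ml and 0.284% at 100 IU/ml. Its calls for list genes were not examined without single dates or with median scaling. Of 15 tested among 20 other death ligands and receptors, 0 were called in any comparison with untreated cells, and the blocked fit called 1, Tnfsf15, a TNF family ligand, at 1000 IU/ml IFN epsilon (1.08, adjusted p = 0.0241; limma without block 0.177). Ltb, a subunit of the lymphotoxin heterotrimer, was 0.83 ± 0.33 higher there without passing the test (limma adjusted p = 0.410). Among 24 other adaptors and regulators of receptor complexes, 2 rose at 1000 IU/ml of either interferon. Daxx, a Fas-binding protein that also acts as a histone chaperone, changed by 2.37 ± 0.41 with IFN epsilon (limma adjusted p = 0.00345) and 2.30 ± 0.41 with IFN beta (0.00617). Rnf31, the catalytic subunit of the linear ubiquitin ligase that acts at TNF receptors, changed by 1.09 ± 0.21 (limma adjusted p = 0.00757) and 0.98 ± 0.21 (0.0251). Both were well above background on all 22 arrays, and treated samples lay above all untreated ones at 1000 IU/ml. The blocked fit also called Daxx at 100 IU/ml IFN epsilon (1.66, adjusted p = 0.00983; limma without block 0.0963). With 1000 IU/ml IFN epsilon it further called Birc2 (0.35, adjusted p = 0.0353) and Traf5 (0.71, 0.0175) higher and Pea15a (-0.31, 0.0210) and Traf3 (-0.51, 0.00161) lower, and with 1000 IU/ml IFN beta Traf3 lower (-0.31, 0.0494).

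Among 18 executioner caspases, apoptosome components and their inhibitors, 1 rose, Xaf1, which antagonises the caspase inhibitor Xiap and is known as interferon-inducible. It was the one gene of these lists called at the lowest dose of IFN epsilon (2.18 ± 0.37, limma adjusted p = 0.0224), and it changed by 3.11 ± 0.37 at 100 IU/ml (0.000263) and 3.55 ± 0.37 at 1000 IU/ml (3.85e-05). With IFN beta it was called at 1000 IU/ml (3.34 ± 0.37, limma adjusted p = 9.99e-05) but not at 100 IU/ml (1.76 ± 0.42, 0.392; blocked fit 1.98, 0.0134). The blocked fit also called Casp2 (0.37, adjusted p = 0.0462) higher and Birc5 (-0.24, 0.0210) and Dffa (-0.32, 0.0419) lower at 1000 IU/ml IFN epsilon. Of 17 tested among 23 other Bcl2 family genes, 0 were called, and Bid, the Casp8 substrate that links receptor and mitochondria, was 0.93 ± 0.24 higher at 1000 IU/ml IFN epsilon (limma adjusted p = 0.0683). The blocked fit called 3 of them there, Bid (adjusted p = 0.00936), Bak1 (0.39, 0.0131) and Bbc3 (0.24, 0.0487), all higher, as 4.33% of all genes were. With 1000 IU/ml IFN beta it called Bak1 higher (0.37, adjusted p = 0.0321, limma without block 1.00), as 2.72% of all genes were. Bmf, another BH3-only gene, was at -0.40 ± 0.78. Of 16 p53 targets outside the members, 0 were called, and the blocked fit called Trp53inp1 (0.48, adjusted p = 0.0404) higher and Zmat3 lower at 1000 IU/ml IFN epsilon. Gtse1 was at 0.66 ± 0.86 and Zmat3 at -0.59 ± 0.24 at 1000 IU/ml IFN epsilon (limma adjusted p = 0.479; blocked 0.0244). The lists' medians at 1000 IU/ml IFN epsilon were -0.03, 0.01, -0.04, -0.11 and -0.03 in the order given, against -0.065 for all genes, so the few called genes stood beside lists that moved little.

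**Figure D5:**
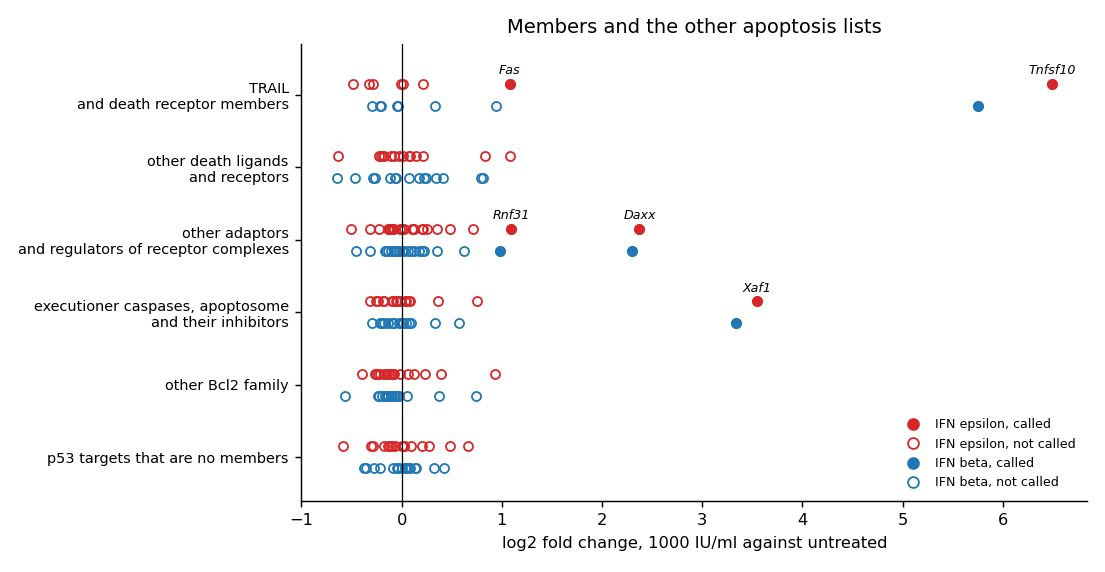
Log2 fold changes at 1000 IU/ml against untreated cells for the 8 members and the tested genes of the 5 other apoptosis lists, IFN epsilon in red and IFN beta in blue; filled circles passed the test (limma adjusted p under 0.05) and open circles did not. The genes called with IFN epsilon are Tnfsf10 (6.49), Fas (1.08), Xaf1 (3.55), Daxx (2.37) and Rnf31 (1.09).

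Over the 19 samples, the genes whose levels followed Tnfsf10 most closely among 14424 were Ifit2 (Pearson r = 0.988), Trim26 (0.987) and Znfx1 (0.987). Their changes at 1000 IU/ml IFN epsilon were 4.05 ± 0.67, 1.52 ± 0.29 and 2.84 ± 0.48. Those most like Fas were Casp1 (0.961), Gm12216 (0.953) and Apobec1 (0.952), with changes of 1.61 ± 0.29, 2.11 ± 0.33 and 3.40 ± 0.49. These coefficients describe samples that share treatments, dates and arrays, and they carry no test.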

How the data were processed

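RNA of ID8 cells was labelled with Cy3 and hybridised to 1-colour Agilent arrays, 24 on 3 slides. Per the file headers, the deposited intensity is the processed signal of Agilent Feature Extraction 11.0.1.1, whose background and other corrections those headers do not name; flags for outliers and for signal well above background come with it. The deposited table of log2 values was used as an alternative; R 3.6.1 and limma 3.42.0 are listed in the submitters' processing notes, and no source used here gives its steps. Its columns ran from -1.57 to 18.5 with medians of 5.73 to 5.79 and correlated with the scanner values at 0.988 to 0.995; whether a constant was subtracted stays unknown.

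From the scanner files, the processed signal was taken as log2 and each array's own 75th percentile was subtracted, without control and outlier spots (79 to 280 per array); an untreated sample is the mean of its 2 arrays. RefSeq accessions gave gene names through an annotation of GRCm38.p6 (names only; 32994 of 56605 probes matched). Probes had to be well above background in 2 or more samples of some group, and a gene was represented by its brightest probe (mean over samples). limma 3.58.1 in R 4.3.3 fitted 7 groups (12 residual degrees of freedom, no block) for 12 comparisons. The fit was run on simulated data with independent errors and no date effect, unlike the real samples. It called 59 of 100 genes changed by 1 log2 unit at 1000 IU/ml IFN epsilon and 88 of 100 changed by 2, with 7 false calls. Confidence intervals are 95%.

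The series text ties replicate numbers to separate dates. Samples with the same number in different groups had correlated deviations from their group means (median 0.473 over 52 pairs, -0.062 to 0.766). The median over 102 other pairs was -0.21, but centering on the means of small groups makes such values negative when same-number samples correlate. Because same-number samples were correlated, the blocked value is printed where it changes the call of a gene that is named. Alternatives changed the scaling, background correction, probe filter, probe summary, slide, block, arrays and samples; normexp used the median spot signal. Named genes were all members, of each other list the genes called against untreated cells (at most 5) and the 2 with the largest change at 1000 IU/ml IFN epsilon, and for each called member the 3 genes with the highest correlation; genes called only in the blocked fit were named after their values were seen. A gene that this rule covers is not reported here. Members and lists were chosen with earlier results of these data known. Near-identical gene copies were not resolved beyond the array's probes.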

Additional observations from a re-analysis of the deposited data

Results flagged for a closer look

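The 2 arrays that the submitters excluded, replicate 3 of IFN beta at 10 and at 100 IU/ml (both of date 3), entered no comparison, and 3 members read above every untreated array on them. Tnfsf10 was at 1.19 on the excluded array of 100 IU/ml and at -0.060 on that of 10 IU/ml, against -5.98 on the highest untreated array, group means of -5.38 and -6.30 over the samples kept, and a mean of -0.87 at 1000 IU/ml IFN beta. Fas was at 1.19 and 0.53, against 0.36 on the highest untreated array and group means of 0.32 and 0.33. Cflar was at 2.04 and 2.01, against 1.61 on the highest untreated array and group means of 1.25 and 1.20. In the other direction, Bcl2 was at -0.55 on the excluded array of 100 IU/ml and -0.34 on that of 10 IU/ml, below the lowest untreated sample (0.11), and Pmaip1 at 1.73 and 1.82, below the lowest untreated sample (1.91). Tnfrsf10b was at 1.26 and 1.32, Fadd at 0.33 and 0.49, and Casp8 at 1.62 and 1.39. The reason for the exclusion is not given in the sources used here, and the cause of these levels was not tested. Groups of 2 or 3 samples were not examined for single outlying samples.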

How the results depend on the processing

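Of 2304 recomputed member values, 255 changed sign, and in 0 of these was either value called. The number of members called at 100 IU/ml IFN epsilon (1 in the main analysis) was 0 with normexp correction, with the submitters' table, with only the groups compared and with all 24 arrays, and 0 to 1 without single samples. At 1000 IU/ml IFN epsilon (2) it was 1 with median scaling, with no filter on dim probes, with probes averaged and with only the groups compared, 0 with all 24 arrays, and 1 to 2 without single samples. At 1000 IU/ml IFN beta (1) it was 0 with normexp correction, with only the groups compared and with all 24 arrays, and 1 without single samples. For 1000 against 10 IU/ml it was 0 with all 24 arrays for either interferon (1), 0 for IFN beta also with normexp correction and with only the groups compared, and 0 to 1 without single samples. The other 7 counts were 0 in every setting, except the 1 given next.

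With the replicate block the count was 5 at 1000 IU/ml IFN epsilon, 2 at 1000 IU/ml IFN beta, 4 for 1000 against 10 IU/ml IFN epsilon and 2 for IFN beta; it changed no other count. Chosen after seeing the data, the replicate block was combined with other settings. The count at 1000 IU/ml IFN epsilon was then 1 with median scaling and 4 with quantile normalization, normexp correction or the submitters' table. With 1000 IU/ml IFN beta it was 2 with quantile normalization and 3 with normexp correction or the table, the third being Bcl2. For 1000 against 10 IU/ml IFN epsilon it was 4 with each of these 3 settings, and for IFN beta 2 with the table. For IFN epsilon against IFN beta at 100 IU/ml it was 1 with median scaling. With the replicate block and without single dates the counts were 0 to 1 at 100 IU/ml IFN epsilon, 1 to 3 at 1000 IU/ml IFN epsilon, 0 to 1 at 1000 IU/ml IFN beta, 0 to 2 for 1000 against 10 IU/ml IFN epsilon and 0 to 1 for IFN beta. Over all genes, the number called at 1000 IU/ml IFN epsilon was 326, against 1187 with the replicate block, 173 with median scaling and 70 with all 24 arrays; at 1000 IU/ml IFN beta it was 225, against 462 with the block, 145 with median scaling, 54 with only the groups compared and 0 with all 24 arrays. At 100 IU/ml IFN epsilon it was 151, against 0 with all 24 arrays. For 1000 against 10 IU/ml IFN epsilon it was 198, against 673 with the block, 69 with median scaling and 0 with all 24 arrays; for IFN beta 162, against 248, 105 and 0, and 2 with only the groups compared. A fit of only the groups compared holds fewer samples, and the cause of these differences was not tested. The small number of arrays limits precision, and the Tnfsf10 probe lies near background in untreated cells, where values follow the background method.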
